A study of Saccharomyces cerevisiae BY4743 with 24 samples.

Results

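The 8 yeast genes GSY1, GSY2, GLG1, GLG2, GLC3, GPH1, GDB1 and GAC1, which make, branch, break down and regulate glycogen, were taken by symbol from the 5959 mRNA entries of a polysome RNA-seq table. All 8 were in the table. The study compared BY4743, a diploid laboratory strain of Saccharomyces cerevisiae, after 30 min at 42 °C (heat shock) with the same strain growing at 30 °C. Both groups were grown to mid-log phase in synthetic medium with raffinose and a trace of glucose, and carried no other treatment until cycloheximide at harvest. Lysates were run on sucrose gradients and each gradient was divided into 4 pools, whose library names call pools 1, 2 and 3 mono, di and tri, with pool 4 the heaviest. The 2 temperatures, 4 pools and 3 replicates gave 24 libraries from 6 gradients. The heat-shocked cultures went through a filtration and a change of medium that the 30 °C cultures did not, so heat and handling cannot be told apart.

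Glycogen is a branched polymer of glucose that yeast lays down as a reserve when growth slows or stress sets in. Glycogenin (Glg1 and Glg2) attaches the first glucose units to itself, glycogen synthase (Gsy1 and Gsy2) lengthens the chain from UDP-glucose, and the branching enzyme Glc3 adds the branch points. Glycogen phosphorylase (Gph1) and the debranching enzyme (Gdb1) release the glucose again, and Gac1 brings protein phosphatase 1 to glycogen synthase, which is active when dephosphorylated. Several of these genes are known targets of the general stress response that protein kinase A holds back.

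On the R64 assembly, GSY1 (YFR015C) lies on chromosome VI from 174265 to 176391 with a coding length of 2127 nt, and GSY2 (YLR258W) on chromosome XII from 660716 to 662833 with 2118 nt. GLG1 (YKR058W) lies on chromosome XI from 552770 to 554620 (1851 nt) and GLG2 (YJL137C) on chromosome X from 154985 to 156127 (1143 nt). GLC3 (YEL011W) lies on chromosome V from 133120 to 135234 (2115 nt), and GAC1 (YOR178C) on chromosome XV from 667860 to 670241 (2382 nt). GPH1 (YPR160W) and GDB1 (YPR184W) share chromosome XVI, from 861306 to 864014 (2709 nt) and from 902044 to 906654 (4611 nt). GSY1 with GSY2 and GLG1 with GLG2 are paralog pairs. Reads that match both members of a pair are divided between them by the quantification, so the value of a single paralog is less certain than that of the other members.

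Values are mRNA TPM, the authors' transcript abundances (TPM) rescaled so that the mRNAs of a library sum to 1000000, and they are per length, so levels of different genes can be compared. Read depth is unknown because TPM does not keep it. The mRNAs made up 0.142 to 0.402% of the TPM in pool 1 at 42 °C and 2.19 to 2.47% in pool 1 at 30 °C, so pool 1 at 42 °C rests on the least mRNA. As checks on the labels, HSP104, a disaggregase induced by heat, lay between 3948 and 10260 mRNA TPM in the 12 libraries at 42 °C and between 20.6 and 100.5 in the 12 at 30 °C. URA3, deleted in BY4743, was listed at 0 in all 24 libraries. LEU2, also deleted in this strain, was listed at 0 only in the 8 libraries of replicate 3, and lay between 4.15 and 25.8 in those of replicate 2 and between 22.6 and 217 in those of replicate 1. LEU2 thus differed by replicate number at both temperatures. Spike-in RNA in replicate 1 summed to 22.7 to 94.3 TPM, against 246 to 511 TPM in replicate 2 and 332 to 442 TPM in replicate 3. The labels do not tell whether the replicates were grown separately, and p-values cover the spread between these samples only. In these bulk samples, fewer cells holding an mRNA and less of it per cell cannot be told apart.

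The 2 glycogen synthase mRNAs moved in opposite directions with heat. GSY2, which encodes the main glycogen synthase, rose 4.63-fold over the 4 pools and GSY1, its paralog, fell 2.37-fold. The mRNAs of the branching enzyme GLC3, of glycogen phosphorylase GPH1 and, at the edge of the threshold, of the initiator GLG1 also rose. In pool 1, GSY2 stood at 264, 179 and 195 mRNA TPM in replicates 1 to 3 at 42 °C, against 31.7, 25.5 and 24.5 at 30 °C. In pool 2 it stood at 219.5, 156 and 122 at 42 °C, against 47.5, 29.7 and 14 at 30 °C, and in pool 3 at 203, 141 and 121 at 42 °C, against 46.8, 42.2 and 29.3 at 30 °C. In pool 4 it stood at 308, 258 and 259 at 42 °C, against 106, 99.1 and 90.4 at 30 °C. Each of the 12 libraries at 42 °C was above each of the 12 at 30 °C, the lowest at 42 °C being 121.0 and the highest at 30 °C 106.3.

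GSY1 stood at 23.3, 17.5 and 26.6 mRNA TPM in pool 4 at 42 °C, against 118, 109 and 94.5 at 30 °C. In pool 3 it stood at 21.2, 12 and 10.0 at 42 °C, against 53.7, 49.3 and 25.2 at 30 °C. In these heavier pools the temperatures did not overlap. In pool 1 the values were 22.4, 32.2 and 15.3 at 42 °C, against 45.7, 26.4 and 19.6 at 30 °C, and in pool 2 they were 34.1, 14.7 and 10.0 at 42 °C, against 51.9, 31.0 and 22.4 at 30 °C, with overlap in both pools. The mean of the 4 pools was 19.9 ± 4.94 mRNA TPM at 42 °C and 53.8 ± 13.4 at 30 °C for GSY1, and 202 ± 40.5 at 42 °C and 48.9 ± 9.27 at 30 °C for GSY2 (mean ± SD of 3 gradients). Among all mRNAs, GSY2 ranked 418 at 42 °C and 1178 at 30 °C, and GSY1 ranked 1936 at 42 °C and 1106 at 30 °C.

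**Figure D1:**
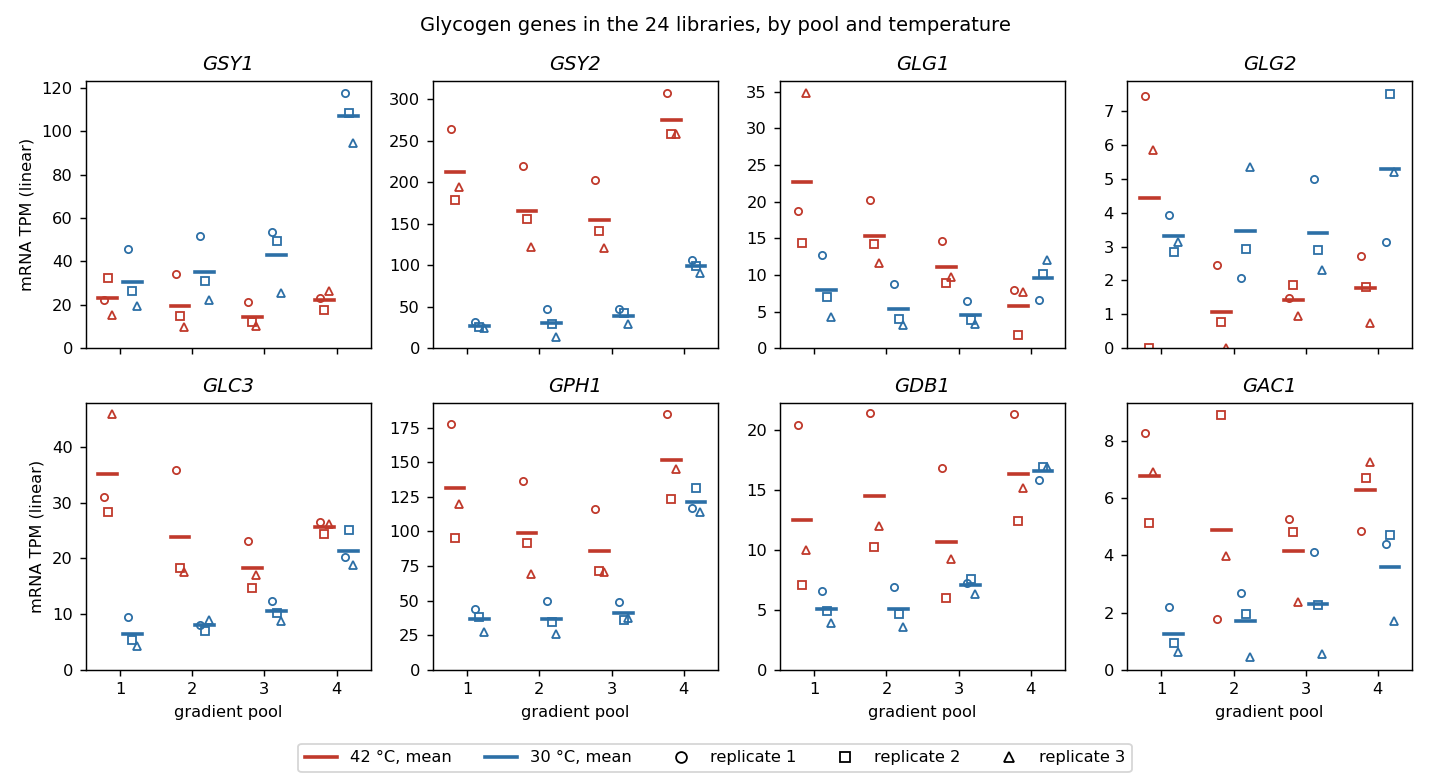
mRNA TPM (linear axis, separate for each gene) of the 8 glycogen genes in every library, by pool, with 42 °C (red) left of 30 °C (blue). Symbols mark the replicate and bars the mean of 3. GSY2 at 42 °C sits above every library at 30 °C in all pools, and GSY1 at 42 °C sits below 30 °C in pools 3 and 4.

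Set against each other within a library, the synthase pair does not depend on how libraries are scaled. GSY1 made up 8.97 ± 0.877% of the summed GSY1 and GSY2 mRNA TPM at 42 °C and 52.4 ± 1.77% at 30 °C (mean ± SD of 3 gradients, each the mean of 4 pools). By pool the share at 42 °C was 10.1 ± 4.47%, 9.87 ± 3.15%, 8.32 ± 0.984% and 7.57 ± 1.55% in pools 1 to 4, against 51.4 ± 7.35%, 55.0 ± 5.74%, 51.2 ± 4.25% and 52.0 ± 0.781% at 30 °C. The highest library at 42 °C was at 15.3% and the lowest at 30 °C at 44.4%. The pair was therefore at near-equal mRNA levels at 30 °C and dominated by GSY2 at 42 °C in every pool. The log2 ratio of GSY1 to GSY2, with 1 added to both values, averaged −3.32 ± 0.11 at 42 °C and 0.14 ± 0.10 at 30 °C, a difference of −3.45 or 10.96-fold. Exact permutation of the 3 against 3 gradients gave a two-sided p = 0.1, the smallest this design allows, and 0.1 after Benjamini-Hochberg adjustment over the 3 ratios tested, so no ratio could pass 5%. The difference was −3.50, −3.37 and −3.49 at replicate numbers 1, 2 and 3.

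**Figure D2:**
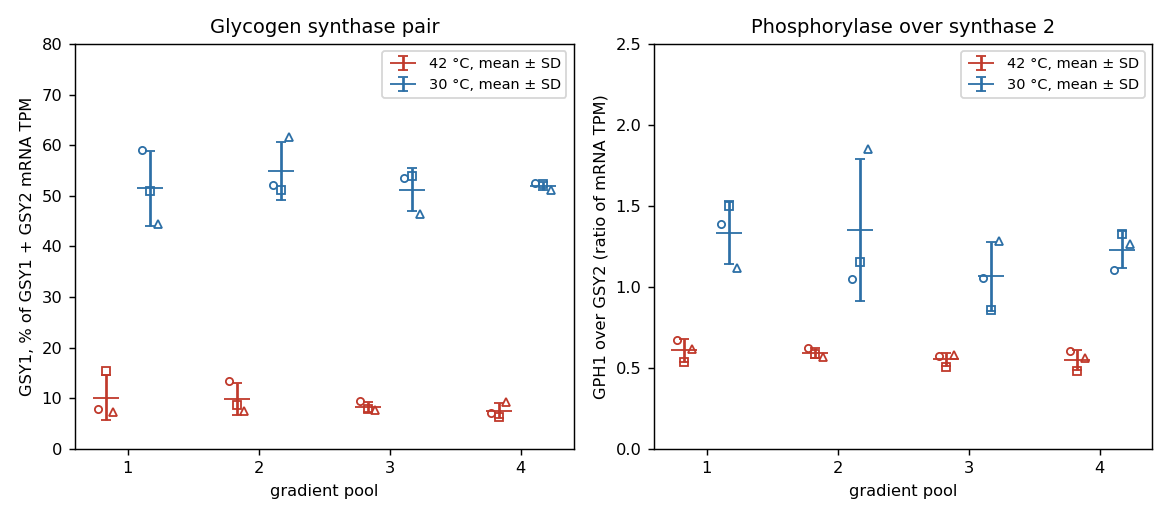
Left, GSY1 as a percent of GSY1 plus GSY2 mRNA TPM; right, the ratio of GPH1 to GSY2 mRNA TPM. Points are libraries by pool (symbol by replicate, as circle, square and triangle for 1, 2 and 3), with mean ± SD of 3, and 42 °C left of 30 °C. The GSY1 share at 42 °C stays at or below 15.3% and at 30 °C at or above 44.4%.

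The test across all genes used log2(mRNA TPM + 1) in limma, on genes that reached 10 mRNA TPM in 3 or more libraries, and Benjamini-Hochberg adjustment over the 3949 genes kept. Of the 8 glycogen genes 6 passed that filter, and counts are over these 6. Each of the 6 also reached 10 mRNA TPM in 3 or more libraries at either temperature taken alone. GLG2, at most 7.51 mRNA TPM, and GAC1, at most 8.92, did not. Over the 4 pools of each gradient 4 of the 6 rose and 1 fell at an adjusted p under 0.05, where 31.2% of all tested genes rose and 32.4% fell. GSY2 had a log2 change of 2.21 ± 0.27 SE (limma adjusted p = 0.000365) and GSY1 of −1.24 ± 0.32 (limma adjusted p = 0.0107). This fit was unpaired. With the replicate number as a block the limma adjusted p was 0.000578 for GSY2 and 0.00511 for GSY1. The median was 0.97 over the 6 and −0.019 over all tested genes. With median scaling, where the median gene of every library is set level, the same 4 genes rose and GSY1 fell, beside 32.8% of all tested genes higher and 33.7% lower. On log2 means of the 4 pools, GSY2, GLC3, GPH1 and GDB1 at 42 °C lay above 30 °C in every gradient, as 34.9% of all tested genes did, and GSY1 lay below, as 35.6% did. With no filter on low values 4 of all 8 rose (GSY2, GLC3, GPH1 and GAC1) and 2 fell (GSY1 and GLG2), beside 26.4% of the 5777 genes higher and 27.6% lower. A log2 change on this scale understates that of weakly expressed genes.

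The glycogenin mRNAs were at low levels at both temperatures. GLG1 stood at 18.7, 14.4 and 34.8 mRNA TPM in pool 1 at 42 °C, against 12.7, 6.94 and 4.22 at 30 °C. It stood at 20.2, 14.3 and 11.6 in pool 2 at 42 °C, against 8.78, 3.96 and 3.15 at 30 °C, and at 14.6, 8.89 and 9.75 in pool 3 at 42 °C, against 6.47, 3.90 and 3.32 at 30 °C. In each of these pools all libraries at 42 °C were above all at 30 °C. In pool 4 the order was not kept, with 7.95, 1.87 and 7.64 at 42 °C, against 6.51, 10.1 and 12 at 30 °C. Over the 4 pools the log2 change was 0.81 ± 0.30 SE (limma adjusted p = 0.0473), and the call was lost without any of 4 of the 6 gradients, namely replicates 1 and 3 at 42 °C (limma adjusted p = 0.130 and 0.112) and replicates 2 and 3 at 30 °C (limma adjusted p = 0.125 and 0.154). It was also lost with a pseudocount of 0.1 (limma adjusted p = 0.0724), with no filter on low values (0.0535) and without pool 1 (0.110).

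GLG2 lay between 0 and 7.44 mRNA TPM at 42 °C, with 2 of 12 libraries listed at 0, and between 2.06 and 7.51 at 30 °C. With no filter on low values its log2 change over the 4 pools was −0.85 ± 0.30 SE (limma adjusted p = 0.0481). GLG1 made up 85.2 ± 5.87% of the glycogenin pair at 42 °C and 62.3 ± 7.40% at 30 °C (SD of 3 gradients), but single libraries ran from 50.7 to 100% at 42 °C and from 37.1 to 81.0% at 30 °C, so the temperatures overlapped. The log2 ratio of GLG1 to GLG2 was 2.29 ± 0.38 at 42 °C and 0.63 ± 0.41 at 30 °C, a difference of 1.65 (exact permutation p = 0.1).

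The branching enzyme mRNA GLC3 stood at 31.0, 28.4 and 45.9 mRNA TPM in pool 1 at 42 °C, against 9.47, 5.30 and 4.25 at 30 °C. In pool 2 it stood at 35.8, 18.3 and 17.6 at 42 °C, against 8.12, 6.96 and 8.87 at 30 °C, and in pool 3 at 23.1, 14.6 and 17.1 at 42 °C, against 12.4, 10.3 and 8.80 at 30 °C. The temperatures were apart in these pools. In pool 4 the values were 26.4, 24.4 and 26.2 at 42 °C, against 20.3, 25.0 and 18.8 at 30 °C, and overlapped. Over the 4 pools GLC3 rose 2.27-fold (log2 1.18 ± 0.22 SE, limma adjusted p = 0.00248).

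Of the breakdown enzymes GPH1 rose and GDB1 did not pass the test. GPH1 stood at 178, 95.2 and 119.9 mRNA TPM in pool 1 at 42 °C, against 44.0, 38.1 and 27.4 at 30 °C, and at 185, 124 and 145 in pool 4 at 42 °C, against 117, 131 and 114 at 30 °C. In pools 2 and 3 it was at 69.5 to 137 at 42 °C and 25.9 to 49.7 at 30 °C. GPH1 was apart between temperatures in pools 1 to 3 and overlapped in pool 4. Over the 4 pools it averaged 117 ± 32.2 at 42 °C and 58.7 ± 6.95 at 30 °C (SD, n = 3 gradients), a log2 change of 1.13 ± 0.27 SE (limma adjusted p = 0.00798). The debranching enzyme mRNA GDB1 stood at 20.4, 7.06 and 9.95 mRNA TPM in pool 1 at 42 °C, against 6.54, 4.88 and 3.91 at 30 °C, and at 21.3, 12.4 and 15.2 in pool 4 at 42 °C, against 15.8, 16.9 and 16.9 at 30 °C. It was apart in pool 1 and overlapped in pool 4. Over the 4 pools GDB1 averaged 13.5 ± 5.78 at 42 °C and 8.44 ± 0.722 at 30 °C. Its log2 change of 0.69 ± 0.32 SE had a limma adjusted p of 0.0961. Without replicate 2 at 42 °C it passed (log2 0.94, limma adjusted p = 0.0356).

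GPH1 rose less than GSY2. The ratio of GPH1 to GSY2 mRNA TPM was 0.575 ± 0.0460 at 42 °C and 1.25 ± 0.120 at 30 °C (SD of 3 gradients). Single libraries lay between 0.479 and 0.674 at 42 °C and between 0.857 and 1.85 at 30 °C, so the 12 libraries at 42 °C were all below the 12 at 30 °C. The log2 ratio differed by −1.08 between the temperatures (exact permutation p = 0.1, 0.1 adjusted over the 3 ratios). Phosphorylase mRNA was thus above that of synthase 2 at 30 °C in most libraries and below it in every library at 42 °C.

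GAC1, the regulator, was low at both temperatures. It lay between 1.78 and 8.92 mRNA TPM at 42 °C and between 0.454 and 4.73 at 30 °C. The groups were apart in pool 1, with 8.28, 5.12 and 6.93 at 42 °C against 2.19, 0.942 and 0.634 at 30 °C, and in pool 4, with 4.87, 6.72 and 7.28 at 42 °C against 4.40, 4.73 and 1.70 at 30 °C. With no filter on low values its log2 change over the 4 pools was 1.08 ± 0.34 SE (limma adjusted p = 0.0307).

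By level, the order at 42 °C was GSY2 (202 mRNA TPM), GPH1 (117), GLC3 (25.7), GSY1 (19.9), GLG1 (13.7), GDB1 (13.5), GAC1 (5.53) and GLG2 (2.17). At 30 °C it was GPH1 (58.7), GSY1 (53.8), GSY2 (48.9), GLC3 (11.5), GDB1 (8.44), GLG1 (6.83), GLG2 (3.86) and GAC1 (2.22). The gradient ranges of GLC3 and GSY1 overlapped at 42 °C, as did those of GSY1 and GLG1 and of GLG1 and GDB1, and at 30 °C those of GPH1, GSY1 and GSY2 overlapped, as did those of GDB1 and GLG1. The 8 genes summed to 399.5 ± 87.7 mRNA TPM at 42 °C and 194 ± 34.0 at 30 °C, or 0.0400 ± 0.00877% of the mRNA at 42 °C and 0.0194 ± 0.00340% at 30 °C (mean ± SD of 3 gradients).

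The heat change of each gene was highest in the lighter pools and lowest in pool 4, and so was that of the median gene. The median of all tested genes on the mRNA sum moved by log2 0.65, 0.42, −0.24 and −0.94 in pools 1 to 4. Each single-pool fit took its spread from all 24 libraries as if they were independent. The 4 pools of a gradient share a lysate, so the p-values of these fits can be too small. On the mRNA sum GSY2 changed by 2.91 ± 0.34 SE, 2.53, 1.94 and 1.47 in pools 1 to 4 and passed in each pool (limma adjusted p = 8.8e-07, 6.0e-06, 0.000119 and 0.00126). GSY1 was at −0.35, −0.90, −1.5 and −2.22, with pools 3 and 4 past the threshold (limma adjusted p = 0.522, 0.0977, 0.00894 and 0.000323). GLC3 was at 2.33, 1.40, 0.74 and 0.26, past in pools 1 and 2, and GPH1 at 1.79, 1.41, 1.02 and 0.30, past in pools 1 to 3. GLG1 was at 1.42, 1.45, 1.13 and −0.76 and GDB1 at 1.04, 1.33, 0.43 and −0.052, both past in pools 1 and 2.

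Counted over the 6 tested genes, 5 rose and 0 fell in pool 1, where 39.7% of all tested genes rose and 17.1% fell, and 5 rose and 0 fell in pool 2, where 33.2% rose and 18.8% fell (limma, with 0 lower at an unadjusted p under 0.05 in pool 1, and GSY1 at an adjusted p of 0.0977 in pool 2). With the replicate number as a block GSY1 also fell in pool 2 (limma adjusted p = 0.0257), beside 33.8% of all tested genes higher and 19.4% lower. In pool 3, 2 rose and 1 fell, where 20.9% rose and 28.1% fell, and in pool 4, 1 rose and 1 fell, where 13.8% rose and 43.8% fell. Median scaling gave 3 higher and 0 lower in pool 1, 5 higher and 1 lower in pool 2 and 4 higher and 1 lower in pools 3 and 4, with 26.3, 25.2, 26 and 27.8% of all tested genes higher and 27.3, 26.7, 25.5 and 26.4% lower in pools 1 to 4. Without 30 °C replicate 2 or 3 or 42 °C replicate 3 the count in pool 1 was 3, without 30 °C replicate 3 that in pool 2 was 3, and without 30 °C replicate 2 that in pool 3 was 1.

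No rise in pool 1 passed the threshold against ribosomal or spike-in RNA. Scaled to 25S rRNA, 0 of the 6 were higher there and 1 was lower, GSY1 at −2.35 (limma adjusted p = 8.2e-05), beside 8.03% of all tested genes higher and 51.7% lower. GSY2 stood at 0.74 (limma adjusted p = 0.0791) and GLC3 at 0.28, with GPH1, GLG1 and GDB1 at −0.36, −0.56 and −0.79. The median of all tested genes was −1.23. Scaled to spike-ins with the replicate number as a block, 0 were higher and 3 were lower, GSY1 at −2.55, GDB1 at −0.91 and GPH1 at −0.85 (limma adjusted p = 0.000121, 0.0173 and 0.0254), beside 4.1% higher and 57.1% lower. GSY2 stood at 0.18, GLC3 at −0.29 and GLG1 at −0.97 in that fit, with the median of all tested genes at −1.44.

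The libraries of the temperatures did not overlap, with 42 °C above 30 °C, for the same 5 genes in pool 1 and in pool 2, where 41.1% and 38.8% of all tested genes did so and 17.3% and 23.2% lay below. In pool 3 GSY2, GLG1, GLC3 and GPH1 at 42 °C lay above 30 °C and GSY1 below, beside 26.4% of all tested genes above and 36.6% below. In pool 4 only GSY2 lay above and GSY1 below among the 6, beside 15% above and 46.9% below.

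**Figure D3:**
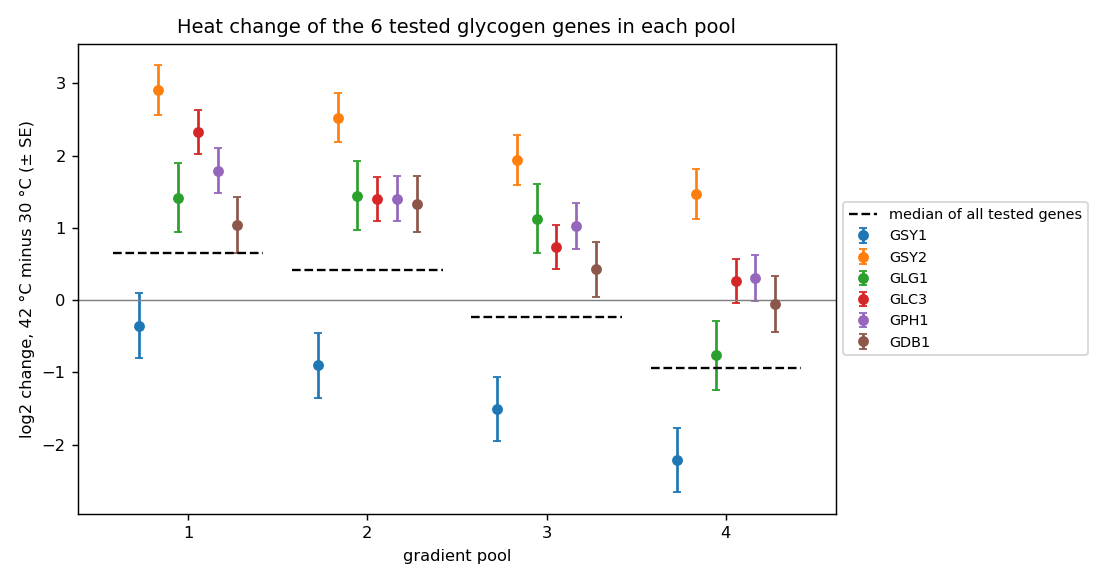
log2 change, 42 °C minus 30 °C, of the 6 tested glycogen genes in each pool (points, ± SE from limma, on the mRNA sum), with the median of all 3949 tested genes as dashed lines. GSY2 lies above the other genes and GSY1 below them in every pool, and the dashed line moves from 0.65 in pool 1 to −0.94 in pool 4.

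The synthase pair kept its opposite directions on all 4 scales, and the rises of the other members did not hold on all. Against 25S rRNA, the large-subunit RNA that marks ribosomes, the median gene over the 4 pools stood at log2 −0.94. There GSY2 rose by 1.18 ± 0.28 SE (limma adjusted p = 0.00504) and GSY1 fell by 2.22 on the log2 scale (limma adjusted p = 0.000267), and GLC3, GPH1, GLG1 and GDB1 stood at 0.21, 0.10, −0.12 and −0.22, none past the threshold. Against the spike-in RNA, with the replicate number as a block because replicate 1 holds less spike-in, GSY2 rose by 0.96 ± 0.41 SE (limma adjusted p = 0.0361) and GSY1 fell by 2.23 (limma adjusted p = 6.2e-07), and the other 4 lay between −0.30 and −0.0103. The SEs of the 6 were nearly equal in that fit (0.41 to 0.48), so its p-values rest on a spread shared over genes. They do not measure the spread of a single gene between gradients. Of all tested genes 15% were higher and 53.4% lower when scaled to 25S rRNA, and 9.42% were higher and 49.8% lower with spike-ins and that block. Spike-in scaling without the block left 0 of the 6 past the threshold in limma (adjusted p = 0.844 for GSY2 and 0.494 for GSY1), beside 1.01% of all tested genes higher and 7.12% lower. At an unadjusted p under 0.05, 0 of the 6 passed there. The rise of GLC3, GPH1 and GLG1 is thus a rise within the mRNA of the pools, and GSY2 also rose relative to ribosomal RNA.

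**Figure D4:**
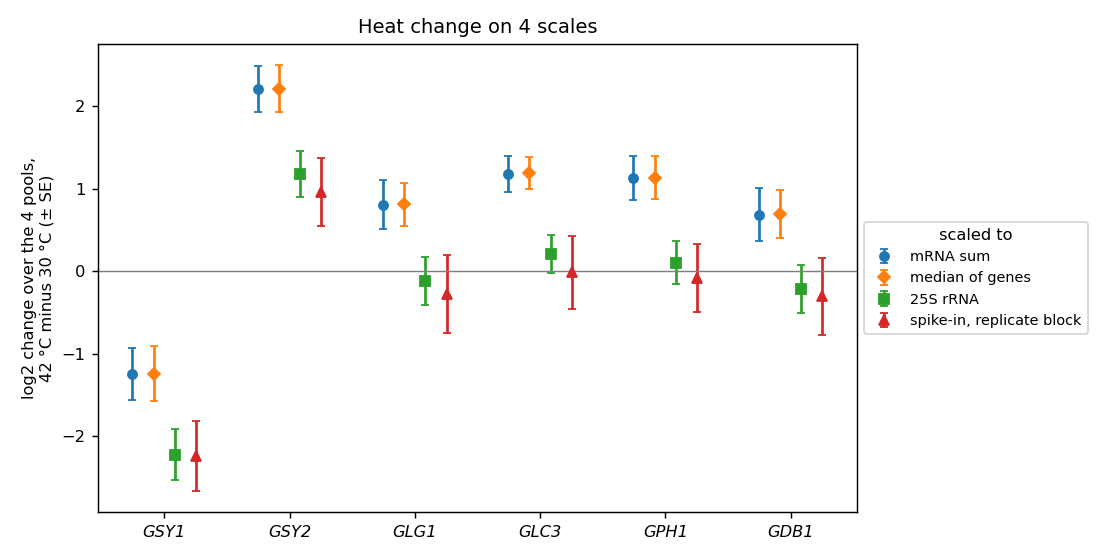
log2 change over the 4 pools, 42 °C minus 30 °C (± SE from limma), of the 6 tested glycogen genes with libraries scaled to the mRNA sum, to the median gene, to 25S rRNA and to the spike-ins with the replicate number as a block. GSY2 lies above 0 and GSY1 below 0 on all 4 scales, and the other 4 genes stand near 0 on the 25S rRNA and spike-in scales.

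Across the gradient, pool 4 was set against pool 1. At 42 °C, 0 of the 6 tested genes were higher in pool 4, where 1.7% of all tested genes were, and 1 was lower, GLG1, where 11.4% were. With each gradient as a block the counts were again 0 and 1 (GLG1, limma adjusted p = 0.00757), beside 3.72% higher and 16.4% lower. GLG1 averaged 5.82 ± 3.42 mRNA TPM in pool 4 and 22.6 ± 10.7 in pool 1 at 42 °C (SD, n = 3), a log2 difference of −1.87 ± 0.48 SE (limma adjusted p = 0.0152), and −1.34 with median scaling (limma adjusted p = 0.0365). With median scaling 8.79% of all tested genes were higher and 5.6% lower. The call was lost without replicate 2 or 3 at 42 °C (limma adjusted p = 0.0689 and 0.0747). The other 5 lay between −0.41 and 0.45 there, with the median of all tested genes at −0.36. Scaled to 25S rRNA, these 5 were higher in pool 4, at 2.20 for GSY2, 2.04 for GPH1, 1.96 for GDB1, 1.65 for GSY1 and 1.31 for GLC3, and GLG1 stood at −0.19 (limma adjusted p = 0.765), beside 46.3% of all tested genes higher and 1.75% lower. With spike-ins and the replicate block the same 5 were higher and GLG1 stood at 0.42 (limma adjusted p = 0.385), beside 62.6% higher and 0.962% lower.

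At 30 °C 5 of the 6 were higher in pool 4 than in pool 1, with log2 differences of 1.85 for GSY1, 1.83 for GSY2, 1.72 for GPH1, 1.66 for GLC3 and 1.54 for GDB1 (limma adjusted p between 0.000285 and 0.00322), and GLG1 stood at 0.31 ± 0.48 SE. The median of all tested genes was 1.18, and 47.1% of them were higher and 1.34% lower. With each gradient as a block 5 of the 6 were again higher, beside 53.6% of all tested genes higher and 1.85% lower. With median scaling these 5 stood at 0.42 to 0.73 and GLG1 at −0.82, and 0 of the 6 passed in limma, where 4.71% of all tested genes were higher and 3.7% lower. At both temperatures GLG1 had the lowest value of the 6 on the mRNA sum.

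The change of that pool difference with heat was negative for all 6 on the mRNA sum, and 5 passed, where 48.2% of all tested genes were lower, 0.304% were higher and the median of all was −1.56. GLC3 was at −2.07 ± 0.43 SE (limma adjusted p = 0.00172), GLG1 at −2.18, GSY1 at −1.87, GPH1 at −1.49 and GSY2 at −1.44, and GDB1 at −1.09 did not pass (limma adjusted p = 0.0997). With each gradient as a block, since pools of a gradient come from one lysate, GDB1 passed too, and 56.1% of all tested genes were lower and 0.405% higher. With median scaling 0 of the 6 passed in limma, beside 0.152% of all tested genes higher and 0.152% lower. Without replicate 2 at 30 °C only 1 of the 6 passed, and without replicate 3 at 30 °C 2 did.

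Other genes that feed or control glycogen were followed over the 4 pools in lists drawn up from textbook knowledge. Counts of these lists are over all their genes with no filter on low values, since several had reached the filter at 1 temperature only, and on that fit 26.4% of all genes rose and 27.6% fell. Of 6 genes that supply UDP-glucose 3 rose and 3 fell. The phosphoglucomutase PGM2 rose by log2 2.92 ± 0.38 (SE of the filtered fit), the glucokinase GLK1 by 2.44 and the UDP-glucose pyrophosphorylase UGP1 by 2.13. The hexokinases HXK2 and HXK1 and the minor phosphoglucomutase PGM1 stood at −2.77, −1.97 and −1.25 (limma adjusted p between 7.1e-05 and 0.00609 for the 6 with no filter). PGM1 had reached the filter through the 30 °C libraries only. PGM2 averaged 146 mRNA TPM at 42 °C and 21.3 at 30 °C. All 6 kept their direction and passed on the 25S rRNA scale (3 higher and 3 lower), beside 15% of all tested genes higher and 53.4% lower. On the spike-in scale with the replicate number as a block 2 were higher and 3 lower, beside 9.42% higher and 49.8% lower.

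Of the 6 genes of protein phosphatase 1 and its subunits 4 rose and 0 fell. They were PIG2 and GIP2, which encode proteins related to Gac1 (3.29 and 2.58), the phosphatase regulator GLC8 (2.10) and the catalytic subunit GLC7 (0.81), with limma adjusted p between 0.000132 and 0.0172 with no filter. REG1 did not pass at 0.39, nor did PIG1, which had no value of 10 mRNA TPM. PIG2 and GIP2 had reached the filter through the 42 °C libraries only, with at most 2.32 and 10.1 mRNA TPM at 30 °C. PIG2 averaged 18.2 mRNA TPM at 42 °C and 0.917 at 30 °C, and GIP2 28.1 at 42 °C and 4.03 at 30 °C. Scaled to 25S rRNA, GLC8 stood at 1.06 (limma adjusted p = 0.00698) and GLC7 at −0.22.

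Of 9 genes of kinases and cyclins that act on glycogen synthase or its regulators 4 rose and 1 fell. The PAS kinases PSK1 and PSK2 rose by log2 1.56 and 1.07, the cyclins PCL8 and PCL7 by 0.99 and 0.88, and the cyclin-dependent kinase PHO85, their partner, was at −1.56 (limma adjusted p between 0.00155 and 0.0193 with no filter). PSK1, PCL8 and PCL7 had reached the filter through the 42 °C libraries only, and PSK2 had not reached it. Scaled to 25S rRNA, 0 of the 7 tested genes of this list were higher and 3 were lower, beside 15% of all tested genes higher and 53.4% lower. The 3 were PHO85 at −2.37, SNF1 at −0.83 and SNF4 at −0.57 (limma adjusted p = 0.000118, 0.0406 and 0.0426). PSK1 stood at 0.63 (limma adjusted p = 0.0524), PCL8 at 0.12 and PCL7 at 0.018. With spike-ins and the replicate block 0 were higher and 1 was lower, beside 9.42% higher and 49.8% lower. SGA1, a glucoamylase known from sporulation, averaged 8.93 mRNA TPM at 42 °C and 0.276 at 30 °C, where 9 of 12 libraries were listed at 0. It had reached the filter through the 42 °C libraries only.

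The genes of trehalose, a disaccharide made from UDP-glucose and glucose-6-phosphate, rose in 7 of 7 on the mRNA sum, synthesis and breakdown alike. Scaled to 25S rRNA 5 of the 7 were higher, beside 15% of all tested genes. With spike-ins and the replicate block 4 were, beside 9.42%. TPS3 and the trehalase NTH2 passed on neither of these scales (0.23 and 0.29 with 25S rRNA), and ATH1 passed with 25S rRNA only. The largest changes were 4.37 for TSL1 and 3.60 for TPS1, of the synthase complex, and 3.78 for the trehalase NTH1. TPS3 and ATH1 had reached the filter through the 42 °C libraries only. One of the added spike-ins carries the name TSL1, and reads could be divided between it and the gene. The median changes over all genes of a list with no filter were 0.44 for substrate supply, 1.45 for the phosphatase, 0.43 for the kinases and 2.63 for trehalose, beside 0.012 for all genes.

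**Figure D5:**
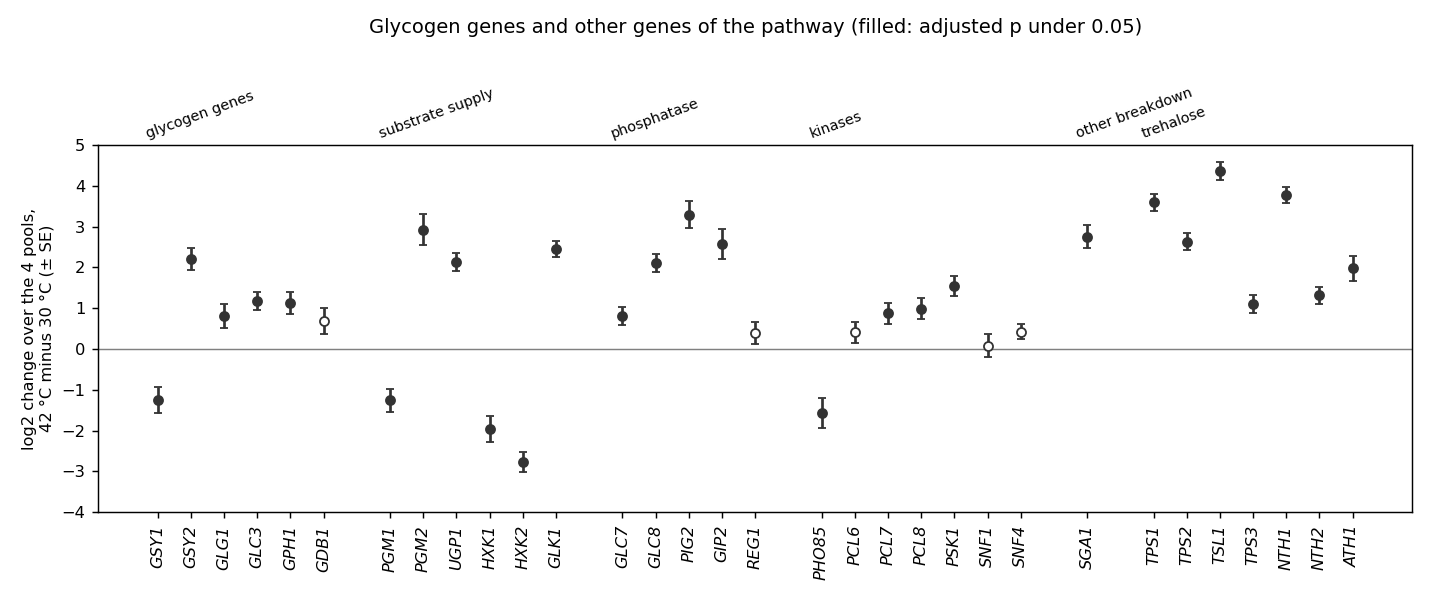
log2 change over the 4 pools, 42 °C minus 30 °C (± SE from limma, on the mRNA sum), of the 6 tested glycogen genes and of the tested genes of the other pathway lists. Filled points have an adjusted p under 0.05 in the filtered fit. PGM1 reached the filter through the 30 °C libraries only. PIG2, GIP2, PCL6, PCL7, PCL8, PSK1, SGA1, TPS3 and ATH1 reached it through the 42 °C libraries only. PGM2, UGP1 and GLK1 lie above 0 beside HXK1, HXK2 and PGM1 below 0, and all 7 trehalose genes lie above 0.

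Over the 24 libraries the genes most like GSY2 in log2 mRNA TPM were YMR196W (Pearson r = 0.977), MRX18 (0.977), YDL124W (0.976), TPS2, the trehalose-6-phosphate phosphatase (0.975), and DCS1, an enzyme that breaks down mRNA caps (0.974). Of the tested genes outside the 6 members 273 had r above 0.9, and temperature is shared by all of them. Outside the 6 members, closest to their mean standardised profile were ZWF1, the glucose-6-phosphate dehydrogenase (0.931), KTR4 (0.929), YSC84 (0.925), SEC17 (0.919) and EMI2 (0.914). These values describe libraries that share gradients and carry no test.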

How the data were processed

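The authors deposited TPM per entry and library. The submitters' processing notes name Trim Galore 0.6.5, Salmon 1.9.0 and build R64. How these tools were set is not given in the sources used here. Each column of deposited TPM sums to between 999967 and 999999 over 6087 entries (5959 mRNAs), with 3 empty lines left out. The RefSeq R64 table held all 6082 gene IDs. Each library's group came from its title.

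TPM were rescaled to the mRNA sum because rRNA takes 96.1 to 99.8% of a library. The log2 of mRNA TPM plus 1 was fitted in limma 3.58.1 (R 4.3.3) with a mean-variance trend, 2-sided, on 6 gradient means for heat over the 4 pools and on all 24 libraries with 1 mean per group otherwise. The fits on 24 libraries treat the pools of a gradient as independent, except where the gradient was a block. Ratios between members were tested by exact permutation (scipy 1.17.1). The fits were tested on simulated data, with noise drawn separately for each library, unlike pools that share a gradient. A 2-fold change was called in 40.3% of changed genes over the 4 pools, and a 4-fold change in 80.6%. In single pools a 2-fold change was called in 11.9 to 25.4%. Unchanged genes were called in 0.187 to 2.48%. A gene that did not pass may therefore still have changed. Members, lists and rules (all 8 members named, up to 3 rises and falls per list, 5 most similar genes) were chosen with earlier results of these data known, and no list was tested as a set. The list of protein kinase A and stress factors is not reported here.

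Deviations at the same replicate number correlated at 0.14 to 0.19 between gradient means of the 2 temperatures, and at 0.03 to 0.10 within pools. The main fits and the exact permutation were nevertheless unpaired. Pairing by replicate number entered only through the replicate block and the exact sign flips. Alternatives were pseudocounts of 0.1 and 5, no filter, median, 25S rRNA and spike-in scaling, blocks, single gradients left out and pool 1 left out. The spike-in scale with a block, the fits without replicate 1 and the list counts with no filter were added after the data were seen.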

Additional observations from a re-analysis of the deposited data

Results flagged for a closer look

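On the mRNA sum, the heat change differed between pool 4 and pool 1 by the interaction term of the limma fit for 5 of the 6 tested glycogen genes. The log2 difference, pool 4 minus pool 1, was −1.87 for GSY1, −1.44 for GSY2, −2.18 for GLG1, −2.07 for GLC3 and −1.49 for GPH1. Of all tested genes 48.2% were lower in the same comparison, with a median of −1.56, so that the 5 values lie around the median gene. With median scaling these genes stood at −0.21, 0.22, −0.52, −0.41 and 0.17, and 0 of the 6 passed in limma.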

How the results depend on the processing

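The heat change of the 6 tested glycogen genes over the 4 pools kept 5 calls with median scaling, pseudocount 5 and the replicate block (also 5), and 4 with pseudocount 0.1, with no filter and without pool 1, GLG1 being the call lost. With the replicate block 30% of all tested genes were higher and 31.7% lower. Shares of all tested genes were not counted for the pseudocounts or for fits with gradients or pool 1 left out. Scaled to 25S rRNA 2 passed (GSY2 higher and GSY1 lower), scaled to spike-ins 0, and with spike-ins and a replicate block 2. Leaving out 1 gradient gave 4 to 6, and 4 remained past the threshold in number without replicate 1 at both temperatures. The causes of the changes below were not tested. Reversed directions over the 4 pools were −0.12 (GLG1) and −0.22 (GDB1) with 25S rRNA, and −0.28 (GLG1), −0.0103 (GLC3), −0.0813 (GPH1) and −0.30 (GDB1) with spike-ins, block or not.
Heat in pool 1 had 3 calls with median scaling, 1 with 25S rRNA, which was lower (GLG1 −0.56, GPH1 −0.36 and GDB1 −0.79 reversed), 0 with spike-ins and 3 with its block, all lower (GLG1 −0.97, GLC3 −0.29, GPH1 −0.85 and GDB1 −0.91 reversed), and 3 to 5 with 1 gradient left out. With spike-ins 0.582% of all tested genes were higher and 6.69% lower in pool 1. Heat in pool 2 had 2 with 25S rRNA (GPH1 −0.0768 and GDB1 −0.00909), 0 with spike-ins, 2 with its block, 6 with the replicate block (GSY1 −0.90, limma adjusted p = 0.0257), and 3 to 5 with 1 gradient left out. Of all tested genes 11.2% were higher and 43.6% lower in pool 2 with 25S rRNA, and 1.62% and 6.41% with spike-ins. With the spike-in block these shares were 11.8% and 33%, and with the replicate block 33.8% and 19.4%. Heat in pool 3 had 5 with median scaling and 5 with the replicate block, 0 with spike-ins and 1 with its block (GLC3 −0.32, GPH1 −0.0651 and GDB1 −0.53), and 1 to 4 with 1 gradient left out. Of all tested genes 21.6% were higher and 28.9% lower in pool 3 with the replicate block. With spike-ins these shares were 1.47% and 9.95%, and with the spike-in block 7.7% and 49%. Heat in pool 4 had 5 with median scaling (GLG1 0.18 and GDB1 0.89 reversed) and 0 with spike-ins (GDB1 0.0039, also with its block), and GDB1 ran from −0.25 to 0.11 with 1 gradient left out, the highest without 42 °C replicate 2. With spike-ins 1.7% of all tested genes were higher and 9.22% lower in pool 4.
Pool 4 against pool 1 at 42 °C had 5 calls with 25S rRNA, 0 with spike-ins and 5 with its block, and 0 to 1 with 1 gradient left out. With spike-ins 0.0253% of all tested genes were higher and 0.127% lower. GSY1 reversed to 0.52 (median), 1.65 (25S rRNA), 1.91 (spike-in, both fits) and, in a range from −0.39, 0.41 (without replicate 2), GLC3 to 0.13, 1.31 and 1.68 on the same 3 scales, and GLG1 to 0.42 with spike-ins. At 30 °C 0 passed with median scaling and with spike-ins, where GLG1 reversed to −0.82 and −0.11, and 4 to 5 with 1 gradient left out, where GLG1 ran from −0.19 (without replicate 3) to 0.90. With spike-ins 0.0253% of all tested genes were higher and 0.253% lower at 30 °C.
The heat change of that difference had 0 calls with median, 25S rRNA or spike-in scaling, block or not, 6 with the gradient as replicate block, and 1 to 5 with 1 gradient left out. Of all tested genes 0.355% were higher and 0.0506% lower with 25S rRNA. With spike-ins these shares were 0% and 0.0253%, and with the spike-in block 6.08% and 0.228%. GSY2, GPH1 and GDB1 reversed to 0.22, 0.17 and 0.57 with median scaling and to 0.70, 0.64 and 0.71 with 25S rRNA (GSY1 0.12), and the spike-in values of GSY1, GSY2, GLG1, GLC3, GPH1 and GDB1 were 0.46, 1.29, 0.53, 0.56, 1.18 and 0.92.
The replicate block moved 4 single results past the threshold and lost none. The GSY1 to GSY2 difference ran from −3.50 to −3.39 with 1 gradient left out and stood at −3.45 paired by replicate number (exact sign flips p = 0.25, the smallest 3 pairs allow), that of GPH1 to GSY2 from −1.13 to −1.01, and that of GLG1 to GLG2 from 1.45 to 1.88, or 0.93 with a pseudocount of 5 and 2.45 with 0.1. Depth is unknown, and values near 1 mRNA TPM (GLG2, GAC1) carry the least precision.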

Other observations

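Within groups the glycogen genes varied with the replicate number. Over the 6 tested genes and 4 pools, replicate 1 was the highest of the 3 libraries in 20 of 24 cases at 42 °C and in 18 of 24 at 30 °C. The lowest was most often replicate 2 at 42 °C (15 of 24, against 9 for replicate 3) and replicate 3 at 30 °C (20 of 24), so only the place of replicate 1 was shared by the temperatures. LEU2 was also highest in replicate 1 and listed at 0 in replicate 3 at both temperatures. Genes and pools of a gradient are not independent, and the part of LEU2 or spike-in in this order was not tested.

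At 42 °C GSY1 and GSY2 correlated at r = 0.72 over the 12 libraries, and at 30 °C at r = 0.96, against −0.22 over all 24. GPH1 and GDB1, the breakdown pair, stood at 0.79 at 42 °C and 0.97 at 30 °C. GLG1 and GSY2 stood at −0.18 at 42 °C and 0.60 at 30 °C. These are descriptions over pools that share gradients. On the mRNA sum the median of all tested genes at 30 °C also stood log2 1.18 higher in pool 4 than in pool 1. The part of that shared step in these r values was not tested, and pairs of other genes were not compared.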
